A study of Rattus norvegicus with 27 samples.

Results

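The genes described here were transiently high in differentiating rat oligodendrocyte precursor cells (OPCs). They were 85 of the 14217 genes measured (0.598%), and their mean signal after 24 h of T3 was at least 1 log2 unit, or 2-fold, above that of the PDGF cultures and also at least 1 above that after 96 h of T3. Each gene was read from its brightest probe set with a single gene symbol, and both limits were applied to means of 3 arrays. Because these values chose the genes, the height of the peak in T3 is given as a description and was not tested. The tests below compared only groups that had no part in the choice: T3 at 8 and 48 h, and all cultures that also received interferon-γ. The spread in these tests was estimated from all 27 arrays. The arrays that chose the genes thus also entered the standard errors and p-values.

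OPCs were isolated by A2B5 selection from the cerebral cortex of early postnatal rat pups, so other A2B5-positive cells could be carried along. They were expanded with PDGF-AA, with the BMP antagonist noggin in the medium, and RNA was hybridised to Affymetrix arrays. The PDGF group was collected at 0 h. The T3 group had PDGF withdrawn and received T3 for 8, 24, 48 or 96 h, and the T3+IFNγ group received T3 together with IFNγ for the same times. Each of the 9 groups held 3 arrays, labelled donor 1, donor 2 and donor 3, for 27 arrays in all, and the same 3 donors supplied every group. No array of cells kept in PDGF or given no T3 at the later times was analysed here, so the actions of T3, the loss of PDGF and the time in culture cannot be told apart in any difference from PDGF. T3+IFNγ was compared with T3 at matched times.

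PDGF keeps OPCs dividing. When it is withdrawn and T3, the active thyroid hormone, is given, the cells leave the cell cycle, pass through a short committed precursor stage and then switch on myelin genes. OPCs also secrete much of the chondroitin sulfate matrix of the brain and respond to BMP, Wnt and Notch signals, of which BMP favours astrocyte formation. IFNγ signals through JAK kinases, induces interferon regulatory factors, and is known for slowing OPC differentiation.

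The arrays had been normalized together by RMA, so near-equal medians do not show that the RNA samples were comparable. Array medians lay between 5.95 and 6.03 on the log2 scale, and the number of arrays rather than sequencing depth limits the precision. All 5 OPC markers (Pdgfra, Cspg4, Olig1, Olig2, Sox10) lay above the median of all values, 5.99, in each of the 9 groups. Most vascular and fibroblast markers lay below it, with 0 or 1 of 6 above in each group. Of 6 astrocyte markers, 5 or 6 lay above it in each group, and of 7 neuron markers, 2 to 5. Of 7 microglia markers, 5 lay above it in PDGF, 0 in T3 at 96 h and 5 in each T3+IFNγ group. The array of donor 2 in T3+IFNγ at 8 h stood apart in its Gapdh 3′ to 5′ log2 difference, 0.37 against -0.26 to 0.11 in the other 26 arrays. For beta-actin the same difference was highest in donor 2 of T3+IFNγ at 24 h, 1.47, and at 8 h, 1.34, against 0.764 to 1.1625 in the other 25 arrays. In these bulk samples, fewer cells of a type and less RNA per cell cannot be told apart.

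Of the 85 genes, 64 had at least 1 promoter window in the RefSeq table of the GRCr8 build, covering 250 bases before to 50 after the transcription start, and 79 windows were searched on both strands. The promoters of a pair of genes that hold a match are shown here as examples. Psmb10, the member most raised by IFNγ at 8 and 48 h, has the interferon regulatory factor letters GAAANNGAAA in capitals. Serpinf1, whose peak was seen in donors 2 and 3, has the thyroid hormone receptor letters AGGTCA in capitals.
Psmb10, chr19:50743243-50743542, minus strand: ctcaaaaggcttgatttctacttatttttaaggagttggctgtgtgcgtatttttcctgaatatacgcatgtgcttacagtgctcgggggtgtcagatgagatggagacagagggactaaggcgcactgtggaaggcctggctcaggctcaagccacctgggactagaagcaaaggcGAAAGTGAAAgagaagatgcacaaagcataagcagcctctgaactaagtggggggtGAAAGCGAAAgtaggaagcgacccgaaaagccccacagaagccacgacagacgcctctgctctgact
Serpinf1, chr10:60760849-60761148, minus strand: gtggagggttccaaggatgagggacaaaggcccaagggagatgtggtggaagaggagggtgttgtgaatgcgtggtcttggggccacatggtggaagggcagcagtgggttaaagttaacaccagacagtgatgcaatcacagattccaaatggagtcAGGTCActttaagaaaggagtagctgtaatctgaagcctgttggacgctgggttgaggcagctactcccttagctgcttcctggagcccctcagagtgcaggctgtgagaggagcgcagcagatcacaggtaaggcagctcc
The direct repeat of AGGTCA with a 4-base spacer, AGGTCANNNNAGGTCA, was in 0% of the 79 windows and in 0.00598% of all 33469 windows of the table. AGGTCA alone was in 11.4% of them against 16.2% of all windows and GAAANNGAAA in 5.06% against 3.92%. The AP-1 letters TGANTCA were in 0% against 7.33%, the Sox letters AACAAT in 2.53% against 11.7%, and the E-box CACGTG in 8.86% against 6.42%. GAAANNGAAA was searched after the values were seen, and it occurred in the promoters of Atcay, Dpp6, Frzb and Psmb10. These matches describe the letters in short windows only.

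In T3 the 85 genes lay at a median of 0.61 log2 units above PDGF at 8 h, 1.59 at 24 h, 0.67 at 48 h and 0.27 at 96 h. The difference between 24 h and PDGF ranged from 1.02 to 4.03, and that between 24 and 96 h from 1.0012 to 4.55 with a median of 1.32. T3 at 24 h was the highest of the 4 T3 times in 82 members, T3 at 48 h in 2 and T3 at 8 h in 1. By 48 h, 63 members had lost at least 50% of what they lost by 96 h, and by 8 h, 25 had gained at least 50% of what they gained by 24 h. At 96 h the mean was above PDGF in 58 members and below it in 27, and 47 lay within 0.5 of PDGF. Kazn (1.01), Lratd1 (1.01) and Ankrd34a (1.0012) were just inside the limit by the smaller of the 2 differences, and Hes5 (0.9992), Rimbp2 (0.999) and Wasf1 (0.996) just outside. The heat map of the members shows the band at T3 24 h and the course in T3+IFNγ, in which the medians above PDGF were 0.28, 1.46, 0.86 and 0.34 at 8, 24, 48 and 96 h.

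**Figure D1:**
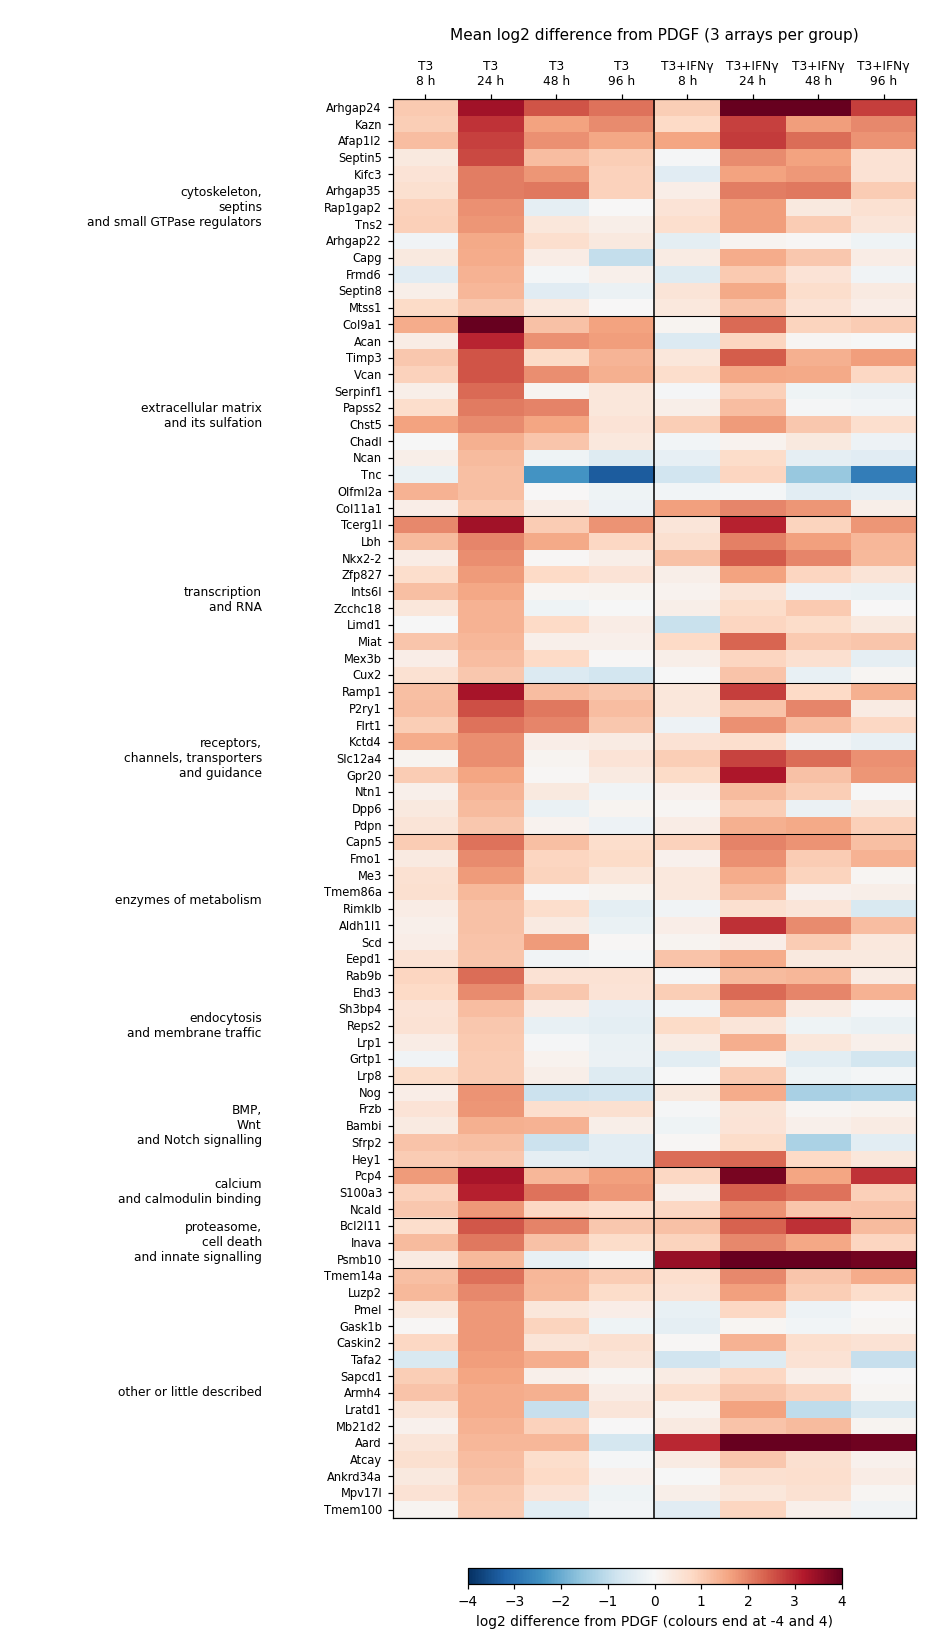
Mean log2 difference from PDGF for each of the 85 genes (rows, grouped by role) in the 4 T3 and the 4 T3+IFNγ groups (columns, 3 arrays each). Red is higher and blue lower than PDGF, and colours end at -4 and 4; the T3 24 h column is red in every row because the genes were chosen so, and Psmb10 and Aard stay dark red throughout T3+IFNγ.

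The peak was not equally sharp in the 3 donors. Both differences reached 1 in all 3 donors for 34 members, in 2 donors for 39 and in 1 donor for 12, and both were above 0 in all 3 donors for 81. All 3 T3 24 h arrays exceeded every PDGF and T3 96 h array in 73 members, and in 8.12% of all genes, a separation that the choice of genes largely fixes. When the genes were chosen on 2 donors and read in the remaining donor, 43 of 88 met both limits in donor 1, 55 of 89 in donor 2 and 55 of 96 in donor 3, which is 56.0% ± 6.57 (SD, n = 3 donors). Of all genes, 0.978%, 0.668% and 0.647% met the limits in those single donors. The arrays of the 3 donors share 1 normalization.

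In T3, donor 1 was higher than the others at 8 h and lower from 24 h on. The median of the 85 genes, relative to PDGF of the same donor, was 0.99 in donor 1, 0.54 in donor 2 and 0.43 in donor 3 after 8 h of T3. At 24 h it was 1.52, 1.80 and 1.66, and at 48 h it was 0.33, 0.77 and 0.88. At 96 h the medians were 0.09, 0.40 and 0.39. The PDGF, 24 h and 96 h arrays of T3 are those that chose the genes. In T3+IFNγ donor 1 was again highest at 8 h (0.55, 0.21 and 0.12 for donors 1, 2 and 3), but it lay between the others after 24 h, with 1.42, 1.57 and 1.28, as well as after 48 h, with 0.740, 0.934 and 0.733. By 96 h it was the highest, with 0.63, 0.27 and 0.31. In T3, donor 1 exceeded the mean of donors 2 and 3 in 63 members at 8 h (74.1%, against 49.8% of all genes) and in 6 members at 48 h (7.06%, against 47.2%). The median SD over donors was 0.41 for members in T3 at 8 h, against 0.14 for all genes, and 0.21 against 0.13 at 24 h. The plot of medians by donor shows the crossing of the lines in T3.

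**Figure D2:**
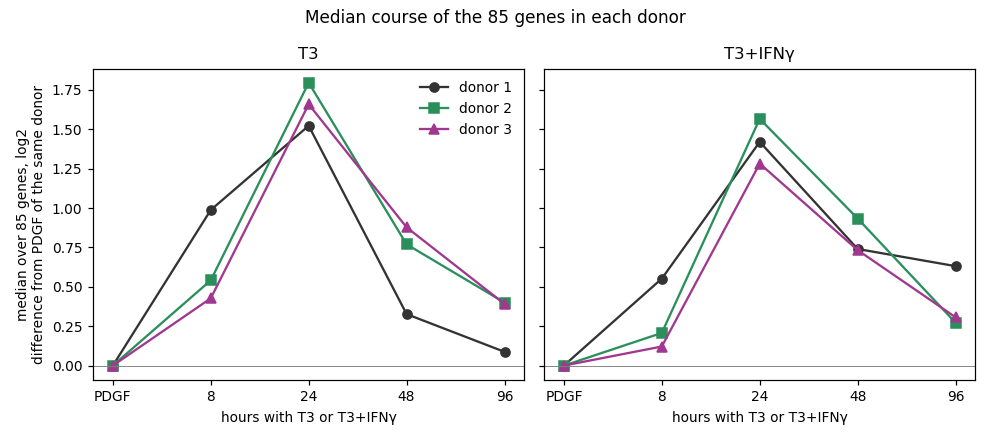
Median over the 85 genes of the log2 difference from PDGF of the same donor (y) against time in T3 (left) or T3+IFNγ (right), with a line per donor. In T3, donor 1 is highest at 8 h (0.99) and lowest at 48 h (0.33).

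In 14 members the T3 24 h array of donor 1 lay at least 1 below the mean of the other donors: Nog, Lratd1, Tnc, Serpinf1, Papss2, Eepd1, Ncan, Capg, Aldh1l1, Hey1, Fmo1, Luzp2, Pdpn and Bambi. The gap was 4.79 log2 units in Nog, 4.55 in Lratd1 and 4.26 in Tnc. In the same group 1.62% of all genes were at least 1 lower in donor 1. The departures went both ways, since donor 1 lay at least 1 above that mean in 5 members: Gpr20, Arhgap24, Limd1, Bcl2l11 and S100a3. In T3+IFNγ at 24 h, which the choice did not use, donor 1 was again lower in all 14 and at least 1 lower in 11. Of all genes, 1.46% were at least 1 lower in donor 1 in that group. Gfap, the intermediate filament of astrocytes and not a member, moved with these genes over the donors: it read 8.58 in donor 1, 12.62 in donor 2 and 12.47 in donor 3 after 24 h of T3, and 9.28, 12.21 and 11.79 after 24 h of T3+IFNγ. The log2 summed level of the 6 astrocyte markers was 12.9 in donor 1 and 14.1 in each of the other donors after 24 h of T3, compared with 12.7 to 13.2 in PDGF and 13.5 to 14.0 in T3 at 96 h. At 48 h of T3 the sum was 12.8, 13.2 and 13.4, and Gfap read 8.96, 9.95 and 10.36. At 96 h Gfap read 9.97, 11.08 and 10.97, so that in donors 2 and 3 both measures were highest at 24 h, lower at 48 h and higher again at 96 h. Gfap is 1 of the 6 markers, so the sum and Gfap are not separate measures, and Aldh1l1 is itself among the 14. In PDGF Gfap already read 8.09, 9.70 and 9.66 in donors 1, 2 and 3. Of 11 astrocyte genes measured, 5 were at least 1 above PDGF at 24 h of T3. Only 1 of the 11 was at least 1 lower at 96 h than at 24 h. The part of astrocytes in these 14 peaks was not tested.

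The extracellular matrix and its sulfation gave 12 members. It held 3 of the 4 lecticans, the hyaluronan-binding chondroitin sulfate proteoglycans. Acan (aggrecan) read 6.14, 6.05 and 6.10 in PDGF, 9.48, 8.98 and 8.95 in T3 at 24 h, and 7.26, 8.04 and 7.97 at 96 h, for donors 1, 2 and 3. Vcan (versican) read 9.41, 9.55 and 9.61, then 12.12, 12.04 and 11.97, then 10.66, 11.01 and 11.18. In both genes the 24 h arrays were apart from all arrays of the other 2 groups in every donor. Ncan (neurocan) read 6.49, 8.60 and 8.57 at 24 h against 6.27, 6.57 and 6.98 in PDGF, so that donor 1 overlapped PDGF. Bcan (brevican), the fourth lectican, was not a member: its mean was 9.64 ± 0.44 in PDGF, 10.99 ± 0.25 at 24 h, 11.19 ± 0.06 at 48 h and 10.39 ± 0.21 at 96 h (SD, n = 3), highest at 48 h.

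The group held 2 collagen chains. Col9a1, a chain of the fibril-associated collagen IX of cartilage, had the highest difference from PDGF of all members, 4.03. Its arrays read 4.67, 4.19 and 3.94 in PDGF, then 6.83, 5.50 and 4.90 after 8 h of T3, 8.28, 8.04 and 8.55 after 24 h and 5.29, 5.53 and 5.52 after 48 h. At 96 h they read 5.62, 5.86 and 6.18. The fall from 24 h was thus complete by 48 h, but the values stayed above PDGF. Col11a1, of the fibrillar collagen XI, read 8.42, 8.57 and 8.59 in PDGF and 9.39, 9.68 and 9.60 at 24 h of T3, a smaller difference. Tnc (tenascin C, a matrix glycoprotein) had the largest difference between 24 and 96 h of the members, 4.55: it read 5.90, 10.09 and 10.22 at 24 h and 3.69, 4.37 and 4.50 at 96 h, which was below its PDGF values of 6.99, 7.74 and 7.84. In donor 1 the values went down without a peak.

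The remaining matrix genes included enzymes that supply and transfer sulfate. Papss2, which makes the sulfate donor PAPS, read 5.46, 8.53 and 8.39 at 24 h against 4.97, 5.41 and 5.73 in PDGF. Chst5, a carbohydrate sulfotransferase, read 9.88, 9.88 and 9.89 at 24 h against 8.04, 7.98 and 8.00 in PDGF, and was already at 9.79, 9.62 and 9.44 after 8 h. Serpinf1, the secreted serpin PEDF, read 3.87, 7.90 and 7.16 at 24 h, and between 3.68 and 4.71 in every PDGF and T3 96 h array. At 24 h the peaks of Papss2 and Serpinf1 thus rested on donors 2 and 3, and that of Chst5 was nearly the same in all 3. Papss2 was high later in donor 1, at 7.55 after 48 h of T3, against 7.34 and 7.17 in donors 2 and 3. Timp3, an inhibitor of matrix metalloproteinases, Chadl and Olfml2a made up the rest.

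BMP, Wnt and Notch signalling gave 5 members. Nog (noggin, which binds and blocks BMPs) read 4.57, 9.38 and 9.34 at 24 h against 5.49, 6.10 and 6.33 in PDGF and 4.47, 5.28 and 5.90 at 96 h, a peak in donors 2 and 3 only. Bambi, a pseudoreceptor that dampens TGF-β family signals, read 6.85, 7.99 and 7.91 at 24 h. Sfrp2 and Frzb encode secreted Wnt-binding proteins. Sfrp2 was as high at 8 h (10.53, 9.78 and 9.67) as at 24 h (10.03, 9.92 and 10.21), and 48 h of T3 gave 7.64, 8.01 and 8.29. From 8 to 48 h of T3 it fell by 2.02, and Hey1, a transcriptional repressor downstream of Notch, fell by 1.37, while Bambi rose by 1.03 (limma, adjusted p 1.06e-07, 0.00022 and 0.0045).

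The 13 cytoskeletal members were mostly septins and proteins that act on actin or small GTPases. Septin5 read 6.31, 6.74 and 6.63 in PDGF, 9.41, 9.26 and 8.94 in T3 at 24 h and 7.14, 7.80 and 7.67 at 96 h, with no overlap between the groups. Arhgap24, Arhgap22 and Arhgap35 encode GTPase-activating proteins, Rap1gap2 one for Rap1, Tns2 a tensin at focal adhesions, and Kifc3 a minus-end kinesin. Rap1gap2 read 8.75, 8.85 and 8.89 at 24 h but 6.11, 6.97 and 6.84 by 48 h, and had thus returned to its PDGF range of 6.89 to 7.06 or below by then. Arhgap24 stayed higher, at 7.09, 7.21 and 7.26 at 96 h against 4.69, 4.88 and 5.47 in PDGF. Capg, Septin8, Afap1l2, Frmd6, Mtss1 and Kazn completed this group.

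Transcription factors, RNA-binding proteins and a non-coding RNA made up a group of 10. Nkx2-2, a homeobox factor of the oligodendrocyte lineage, read 9.68, 9.93 and 9.83 in PDGF and 10.63, 9.92 and 9.77 after 8 h of T3. It then read 11.53, 11.81 and 11.65 at 24 h, and 9.05, 10.10 and 10.42 at 48 h. Its 24 h arrays were above all its other T3 arrays, and donor 1 had partly risen by 8 h. Tcerg1l read 5.84, 6.11 and 6.26 in PDGF and 9.88, 9.10 and 9.32 at 24 h. Cux2, Lbh, Limd1, Zfp827, Mex3b, Ints6l, Zcchc18 and the long non-coding RNA Miat were the others.

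Receptors, channels, transporters and guidance molecules gave 9 members. Ramp1, a subunit of the receptor for calcitonin gene-related peptide, read 7.28, 7.32 and 7.37 in PDGF and 10.95, 10.43 and 10.43 in T3 at 24 h, with 8.21, 8.53 and 8.43 left at 96 h. P2ry1, a receptor for ADP, read 3.76, 3.99 and 3.82 in PDGF, which is low on this array, and 6.14, 6.64 and 6.51 at 24 h. The others were Ntn1 (the guidance cue netrin 1), Slc12a4 (a potassium-chloride cotransporter), Flrt1, Dpp6, Gpr20, Pdpn and Kctd4. Kctd4, named for a domain like that of potassium channels, was counted here although it is not itself a channel. Among 3 calcium- or calmodulin-binding members, Pcp4 read 8.28, 8.91 and 9.02 in PDGF and 11.81, 12.13 and 12.15 at 24 h. Endocytosis and membrane traffic gave 7 members, among them Rab9b, Ehd3 and the lipoprotein receptors Lrp1 and Lrp8. Enzymes, mostly of metabolism, gave 8, among them Scd, a fatty acid desaturase, and Aldh1l1, a folate enzyme used as an astrocyte marker. Capn5 and Eepd1 were counted with these 8 although they are not metabolic enzymes. Psmb10, a catalytic subunit of the immunoproteasome, Bcl2l11, the pro-death protein Bim, and Inava formed a group of 3, and 15 members had other or little described roles.

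**Figure D3:**
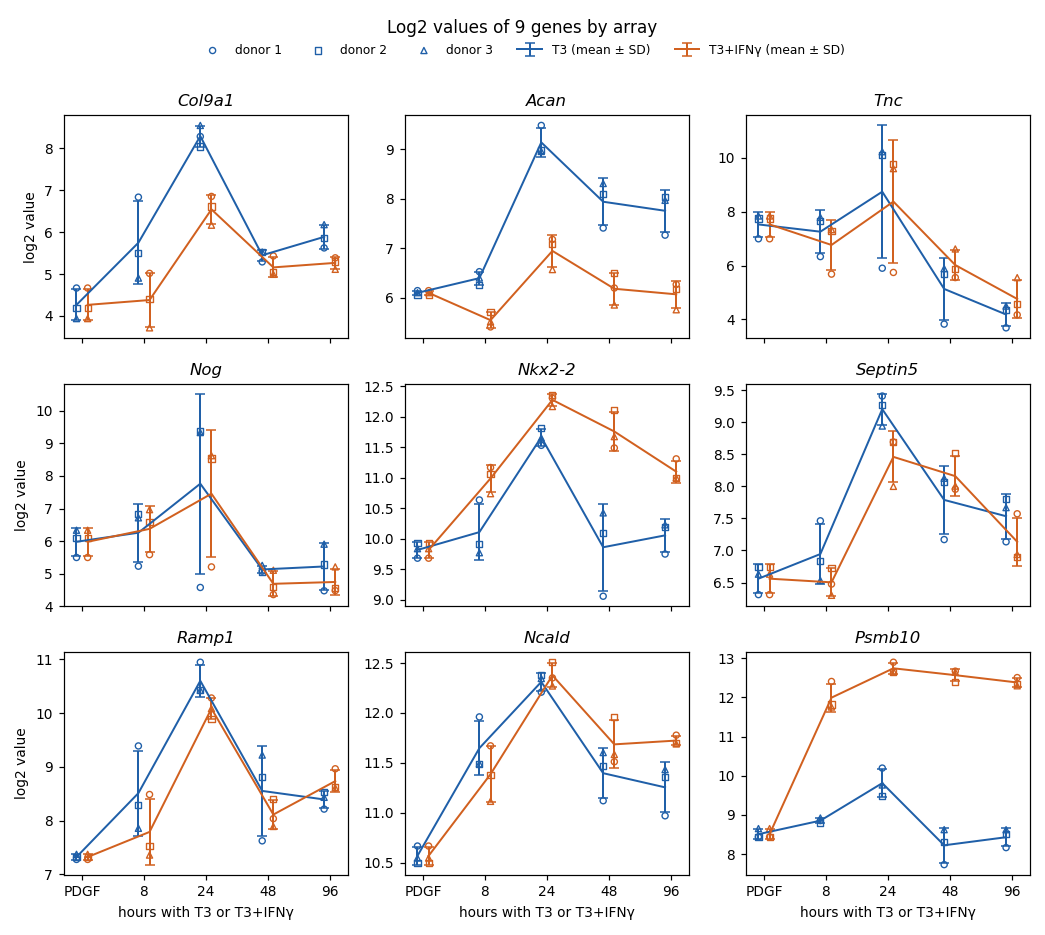
Log2 value (y) of 9 members in PDGF and after 8, 24, 48 and 96 h (x) of T3 (blue) or T3+IFNγ (orange), with each donor as a symbol and lines with bars for the mean ± SD of 3 arrays; both lines start from the same PDGF arrays. Donor 1 (circles) lacks the 24 h peak of Tnc and Nog, and Psmb10 with IFNγ stays between 11.75 and 12.90.

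Members made up 0.598% of all genes, so lists of this size could hold few of them, and the counts are given as a description. None of 27 measured myelin genes, 27 cell cycle genes, 23 cholesterol genes or 14 thyroid hormone genes was a member. Nkx2-2 was the only member among 25 genes of committed and premyelinating precursors, of which 16 were at least 1 above PDGF at 24 h and 1 was at least 1 lower again at 96 h. Vcan and Ncan were the members among 22 OPC genes, Nog and Bambi among 25 BMP and TGF-β genes, Hey1 among 27 Wnt and Notch genes, Scd among 15 fatty acid and sphingolipid genes, Psmb10 among 32 interferon-stimulated genes and Aldh1l1 among 11 astrocyte genes. In T3+IFNγ, 26 of 27 cell cycle genes fell from 8 to 24 h (12.9% of all genes fell), 17 rose from 24 to 48 h (5.44% rose) and 26 fell from 48 to 96 h (10.8% fell).

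The T3+IFNγ groups gave a test of the same time course between means that the choice had not used. From 24 to 96 h of T3+IFNγ, 60 of the 85 genes fell (70.6%) and 0 rose, with a median change of -1.01 (limma, adjusted p under 0.05; 68 fell and 0 rose at an unadjusted p under 0.05). Over all genes 17.8% fell and 13.1% rose, with a median of -0.02. Of the 487 other genes that were at least 1 above PDGF in T3 at 24 h, 69 fell (14.2%) and 168 rose (34.5%), with a median of 0.13. These 487 are the genes that missed the limit between 24 and 96 h of T3. Part of their contrast with the members was thus set by the choice, and nothing is read from it. The 3 arrays at 24 h were all above those at 96 h in 71 members (83.5%) and in 25.0% of all genes. Without donor 2 the number of members that fell was 24, without donor 3 it was 45 and without donor 1 it was 74, each from 2 arrays a group. Without only the donor 2 array of T3+IFNγ at 24 h, which stood apart in beta-actin, 50 fell.

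**Figure D4:**
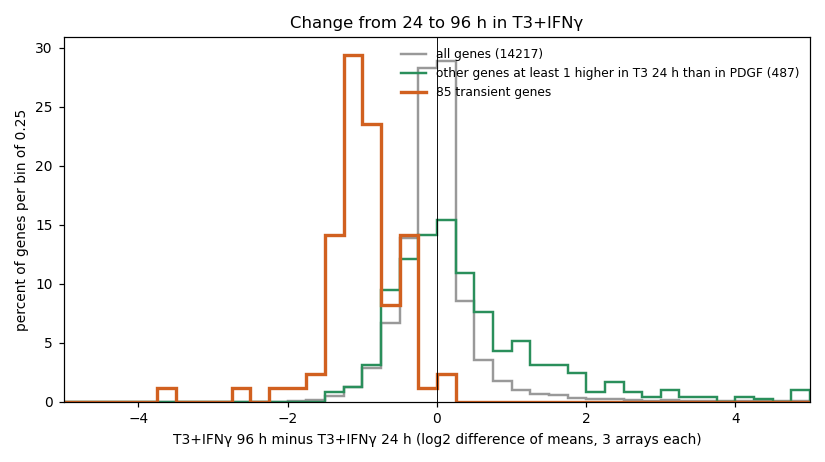
Percent of genes (y) per bin of 0.25 in the log2 change from 24 to 96 h of T3+IFNγ (x, difference of means of 3 arrays) for the 85 transient genes, the 487 other genes at least 1 above PDGF in T3 at 24 h, and all 14217 genes; changes beyond 5 are in the end bins. The 85 genes centre on -1.01 and the other groups near 0. The 487 genes are those that missed the limit between 24 and 96 h of T3.

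From 8 to 24 h of T3+IFNγ, 59 members rose (69.4%) and 0 fell, with a median of 1.08, while 12.0% of all genes rose and 12.9% fell. At an unadjusted p under 0.05, 66 rose and 0 fell. Of the other 487 genes, 384 rose in this step (78.9%). The arrays at 24 h were all above those at 8 h in 64 members (75.3%) and in 15.2% of all genes. Without donor 2, 35 members rose, without donor 3, 46, and without donor 1, 77. Without the array of donor 2 at 8 h alone, which stood apart in RNA quality, 57 rose, and without that of donor 2 at 24 h, 55. The step from 24 to 48 h showed 31 members falling (36.5%) and 2 rising (2.35%), against 9.81% and 5.44% of all genes, and the step from 48 to 96 h showed 22 falling (25.9%) and 3 rising (3.53%), against 10.8% and 13.2%. The 2 that rose after 24 h were P2ry1 (0.81) and Tafa2 (1.11), and the 3 that rose after 48 h were Dpp6 (0.59), Sfrp2 (0.85) and Pcp4 (1.31); Dpp6 and Tafa2 were named after their values were seen. Leaving out a donor gave 12 to 44 members falling and 0 to 4 rising in the first of these steps, lowest without donor 2, and 9 to 41 falling and 0 to 5 rising in the next, with 9 without donor 2.

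The mean of T3+IFNγ at 24 h was at least 1 above both PDGF and T3+IFNγ at 96 h in 36 of the 85 genes (42.4%). Over all genes 92 met these limits (0.647%). Since the PDGF arrays also chose the genes, this count is a description and nothing is read from it. The count was 23 without donor 2. T3+IFNγ at 24 h was the highest of the 4 T3+IFNγ times in 68 members, T3+IFNγ at 48 h in 15, T3+IFNγ at 8 h in 1 and T3+IFNγ at 96 h in 1, and in 20.9% of all genes. Compared side by side at 24 h, without a test since T3 at 24 h chose the genes, the mean with IFNγ was lower in 60 members and higher in 25, at least 1 lower in 12 and at least 1 higher in 6, with a median of -0.28.

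The steepest falls from 24 to 96 h of T3+IFNγ were in Tnc (-3.61 ± 0.96 SE, adjusted p = 0.0061), Nog (-2.71 ± 0.92, 0.0272), Hey1 (-1.83 ± 0.26, 1.3e-05) and Col11a1 (-1.73 ± 0.18, 1.86e-07), by limma. In Tnc the arrays were 5.74, 9.78 and 9.59 at 24 h but 4.17, 4.56 and 5.55 by 96 h. The falls of Tnc and Nog rested on donors 2 and 3 together: without donor 2 the adjusted p was 0.21 and 0.36, and without donor 3 it was 0.092 and 0.22. Nog also did not pass without only the donor 2 array at 24 h (0.14). Those of Hey1 and Col11a1 passed with any donor left out. The difference in Lratd1, -2.21, had an adjusted p of 0.12 that did not pass, and its T3+IFNγ 24 h arrays read 4.51, 9.71 and 9.31. At the other end, the difference from 24 to 96 h was 0.0032 in Gask1b, 0.18 in Scd, -0.20 in Bambi, -0.27 in Olfml2a and -0.29 in Arhgap22, and none of the 5 passed.

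By role, and beside the 17.8% of all genes that fell, 8 of the 12 matrix members fell from 24 to 96 h of T3+IFNγ. So did 10 of 13 cytoskeletal members, 9 of 10 transcription and RNA members and 8 of 9 in the receptor and transporter group. The same step lowered 6 of 7 traffic members, 3 of 5 signalling members and 5 of the 8 enzymes. It also lowered 2 of 3 in each of the proteasome and calcium groups, and 7 of the 15 with other or little described roles. Acan fell by 0.88, Vcan by 0.71, Ncan by 1.18 and Col9a1 by 1.28 (adjusted p 0.0053, 0.0123, 0.0338 and 0.0064 by limma). None of these 4 passed without donor 2, at adjusted p 0.093, 0.20, 0.28 and 0.15, and Vcan and Ncan did not pass without donor 3 either. Ncan did not pass without only the donor 2 array at 24 h (0.13). Nkx2-2 fell by 1.18, Septin5 by 1.33 and Ramp1 by 1.35 (adjusted p 0.0011, 0.00073 and 0.0047), and without donor 2 these were at 0.070, 0.070 and 0.099, and Ramp1 at 0.052 without donor 3.

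More of these genes were lower than higher with IFNγ at 8 h, and more were higher than lower at 48 h. After 8 h, 14 members were lower with IFNγ (16.5%) and 6 higher (7.06%), against 1.58% and 3.69% of all genes, with a median of -0.36 against -0.04. After 48 h, 9 were lower (10.6%) and 18 higher (21.2%), against 8.53% and 7.58% of all genes, with a median of 0.06 against -0.05. Without donor 1 the counts at 8 h were 24 lower and 9 higher, without donor 2 they were 3 and 4, and without donor 3 they were 6 and 3. At 48 h they were 20 and 21 without donor 1, 1 and 6 without donor 2, and 2 and 10 without donor 3. Both times gave a call in 10 members, 9 of them in the same direction. The exception was Rab9b, which was 0.90 lower at 8 h and 0.75 higher at 48 h.

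**Figure D5:**
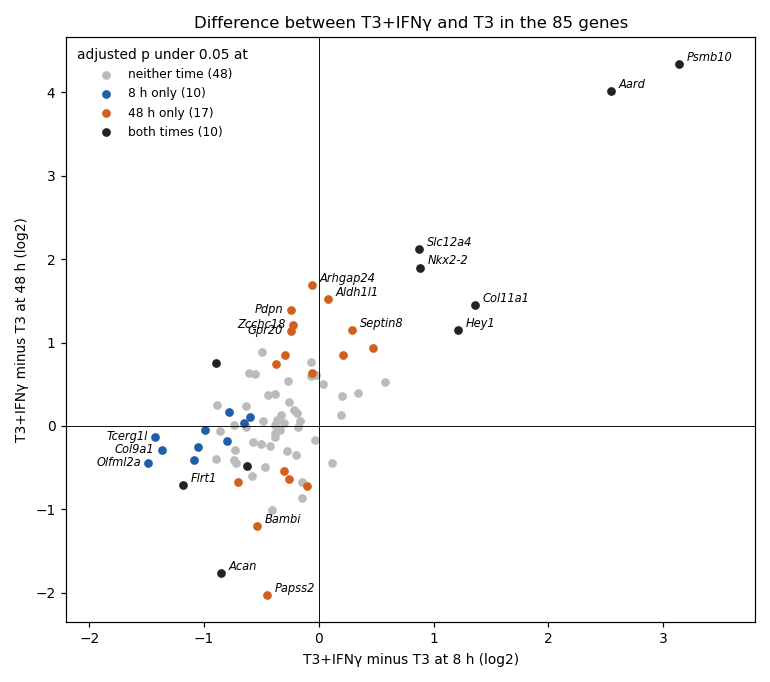
Log2 difference between T3+IFNγ and T3 (means of 3 arrays each) at 8 h (x) and at 48 h (y) for the 85 genes, coloured by the times at which the difference passed an adjusted p of 0.05 (limma). Psmb10 (3.14 and 4.34) and Aard (2.54 and 4.02) lie far from the rest, and Acan and Papss2 lie lowest at 48 h.

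Psmb10 was the member with the largest difference at both 8 and 48 h. In T3 it read 8.85, 8.78 and 8.92 after 8 h, then 7.73, 8.32 and 8.62 after 48 h. With IFNγ it read 12.41, 11.82 and 11.75, then 12.67, 12.39 and 12.64. The differences were 3.14 ± 0.20 (SE, adjusted p = 4.06e-11) and 4.34 ± 0.20 (7.68e-14, limma). Its promoter, printed above, holds GAAANNGAAA at 2 places. Atcay, Dpp6 and Frzb also hold these letters, and their means at 8 h were 8.32, 8.03 and 5.38 in T3 and 7.98, 7.73 and 4.80 with IFNγ. At 48 h the means were 8.35, 7.38 and 5.50 in T3 and 8.31, 7.41 and 4.90 with IFNγ. Any part of the letters in these values was not tested. Aard, an alanine- and arginine-rich protein of little known function, was higher by 2.54 ± 0.33 at 8 h and 4.02 ± 0.33 at 48 h (adjusted p 1.06e-05 and 4.79e-09). In T3+IFNγ it read 11.38, 11.79 and 11.71 after 24 h, 11.46, 12.31 and 12.45 after 48 h, then 9.94, 10.95 and 10.96 after 96 h. Microglia markers also differed between these cultures: their log2 summed level was 8.20 to 9.36 in T3 and 9.63 to 12.1 in T3+IFNγ at 48 h. Their part in Psmb10 and Aard was not tested.

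Both times were also higher with IFNγ in 4 further members. Slc12a4 read 7.05, 7.64 and 7.51 in T3 at 48 h and 9.33, 9.61 and 9.61 with IFNγ, and was higher by 0.87 at 8 h and 2.12 at 48 h (adjusted p 0.0063 and 2.69e-08). Nkx2-2 read 10.63, 9.92 and 9.77 in T3 and 11.17, 11.06 and 10.74 with IFNγ at 8 h, then 9.05, 10.10 and 10.42 and 11.49, 12.11 and 11.67 at 48 h. It was higher by 0.88 ± 0.26 and 1.90 ± 0.26 (adjusted p 0.0449 and 9.18e-06). The difference of Nkx2-2 at 8 h did not pass without donor 2 (0.67), without donor 3 (0.33) or without the donor 2 array of T3+IFNγ at 8 h (0.14). Hey1 was higher by 1.21 and 1.15 (adjusted p 0.0047 and 0.0033) and Col11a1 by 1.36 and 1.45 (1.36e-05 and 3.79e-06). The Hey1 difference at 8 h did not pass without donor 2 (0.16) or donor 3 (0.13).

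At 48 h only, Arhgap24 was higher by 1.69, Aldh1l1 by 1.53, Pdpn by 1.40, Zcchc18 by 1.21, Septin8 by 1.15 and Gpr20 by 1.14 (limma, adjusted p 0.0407, 0.0208, 0.0055, 0.0011, 0.00018 and 0.0304). Septin8 read 8.69, 9.43 and 9.48 in T3 and 10.09, 10.75 and 10.19 with IFNγ, without overlap. Aldh1l1 read 6.83, 7.20 and 7.32 against 8.16, 8.67 and 9.09. The astrocyte marker sum at that time was 12.8 to 13.4 in T3 and 13.3 to 13.7 in T3+IFNγ, and its part was not tested. The Arhgap24 difference did not pass without donor 2 (0.24) or donor 3 (0.22). Pdpn, Septin8 and Gpr20 were named after their values were seen.

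Several matrix members were lower with IFNγ. Acan read 6.52, 6.26 and 6.40 in T3 and 5.41, 5.71 and 5.51 in T3+IFNγ at 8 h, then 7.41, 8.10 and 8.31 and 6.19, 6.49 and 5.85 at 48 h. It was lower by 0.85 ± 0.23 and 1.76 ± 0.23 in these comparisons (adjusted p 0.0291 and 6.21e-06), and the groups did not overlap at either time. Papss2 was lower by 2.03 ± 0.61 at 48 h (adjusted p 0.0251), at 7.55, 7.34 and 7.17 in T3 and 5.16, 5.09 and 5.73 in T3+IFNγ; this did not pass without donor 2 (0.23) or donor 3 (0.14). Chst5 was lower by 0.62 and 0.48 (0.0031 and 0.0124). At 8 h only, Olfml2a was lower by 1.48 and Col9a1 by 1.37 (0.0001 and 0.0163), and at 48 h only, Chadl by 0.72 (0.0086). Col9a1 at 8 h read 6.83, 5.50 and 4.90 in T3 and 5.02, 4.41 and 3.72 with IFNγ, and did not pass without donor 2 (0.34). Chadl did not pass without donor 2 (0.16) or donor 3 (0.12).

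Outside the matrix group, the largest reductions at 8 h were in Tcerg1l (-1.43), Flrt1 (-1.18) and Sfrp2 (-1.09), with adjusted p 0.0107, 0.0003 and 0.0015. Flrt1, a membrane protein of axon guidance and adhesion, was also lower at 48 h, by 0.71 (0.0161), but not without donor 2 (0.11) or donor 3 (0.19). Sfrp2 read 8.94, 8.95 and 8.82 in T3+IFNγ at 8 h, close to its mean of 8.84 ± 0.15 in PDGF (SD, n = 3), against 10.53, 9.78 and 9.67 in T3. Bambi was lower at 48 h by 1.19 (0.0036), at 7.57, 7.48 and 7.62 in T3 and 6.05, 6.39 and 6.65 in T3+IFNγ. Without donor 2 the adjusted p of Sfrp2 was 0.054, of Bambi 0.098 and of Tcerg1l 0.16.

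The difference made by IFNγ was itself tested between 8 and 48 h. It was higher at 48 h in 5 members (5.88%) and lower in 0, against 1.05% and 1.22% of all genes, and at an unadjusted p under 0.05 in 29 and 2. The 5 were Rab9b, Zcchc18, Slc12a4, Psmb10 and Kifc3. With the donor as a block 13 were higher, without donor 1 there were 13, without donor 3 there was 1 and without donor 2 there were 0. The mean of Kifc3 was 8.43 in T3 and 7.44 in T3+IFNγ at 8 h, then 9.66 and 9.61 at 48 h. Kifc3 was thus lower with IFNγ at 8 h and nearly equal at 48 h. Rab9b, a small GTPase of endosome traffic, read 8.42, 8.16 and 7.99 in T3 and 7.37, 7.32 and 7.17 in T3+IFNγ at 8 h, then 7.35, 8.11 and 8.29 and 8.63, 8.95 and 8.42 at 48 h. The groups did not overlap at 8 h or at 48 h, and their order was reversed.

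Between the T3 groups that the choice did not use, 22 members rose from 8 to 48 h (25.9%) and 16 fell (18.8%), against 14.4% and 23.5% of all genes. The members that were higher at 48 h included Acan (1.54), Scd (1.43) and Arhgap24 (1.47, in donors 2 and 3 but not in donor 1), and those that were lower included Sfrp2 (-2.02) and Rap1gap2 (-1.26). Without donor 1, 42 rose and 14 fell. Without donor 2, 9 rose and 9 fell, and without donor 3, 9 rose and 17 fell. Of the 487 other genes that were at least 1 above PDGF in T3 at 24 h, 345 rose in this step (70.8%) and 9 fell (1.85%). Since these 487 missed the limit between 24 and 96 h of T3, the choice also shaped this contrast.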

How the data were processed

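Expression was measured on 27 Affymetrix rat arrays (9 groups, 3 donors). The authors deposited log2 values made with RMA, per the submitters' processing notes, which also name limma; versions and probe-level settings are not given in the sources used here. Of 31099 probe sets, 20826 had a single symbol in the platform annotation of 2016, 436 had several and 9837 had none or were controls, and 20758 of the single symbols were found in the reference gene table. The brightest probe set was taken for each of 14217 genes, 4525 of which had several. Among members, 51 had 1 probe set and 34 several. All probe sets met the limits in 11 of the 34, among them Acan, Papss2, Chst5 and Sfrp2. Only the brightest did in 20, among them Col11a1, Septin8, Bcl2l11, Ntn1, Olfml2a, Chadl and Kazn.

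The members, gene lists and tests were chosen with earlier results of these data known, and role groups were assigned after the members were seen. Named genes were the members with the largest peaks (by the smaller difference), those nearest the limits, those with the largest changes in each comparison and the list members; others are named to complete a role group. limma 3.58.1 in R 4.3.3 was fitted to all 27 arrays with 1 mean per group and moderated variances, and p-values were adjusted by Benjamini-Hochberg over all genes in each comparison. The threshold was 0.05. The fit was tested on simulated data, drawn for each array independently and without a donor effect. That test therefore does not cover the pairing of arrays by donor. Tables and plots were made in Python 3.11.15 with pandas 2.3.3.

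Same-numbered arrays carry the same donor label. Their deviations from group means correlated at a median of 0.31, against -0.17 for arrays of different donors, so the donor pairs the arrays and was tried as a block. No 2 arrays were duplicates (highest correlation 0.9973). The submitters' design text gives the donors as separate rats, and the study calls the arrays independent biological replicates. Results of 1 searched motif are not reported here. Alternatives were the mean over probe sets, median centring, a filter on low values, another moderation, an added 2-fold limit and each donor left out.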

Additional observations from a re-analysis of the deposited data

Results flagged for a closer look

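The difference between T3+IFNγ and T3 was not the same at 8 and 48 h in 5 members, by limma's test of the interaction, and each was more positive at 48 h in 3 of 3 donors. The change was 1.65 log2 units in Rab9b (adjusted p = 0.0014), which passed without donor 1 or donor 3 but not without donor 2 (0.17). It was 1.25 in Slc12a4 (0.0148), 1.20 in Psmb10 (0.0213), 1.44 in Zcchc18 (0.0284) and 0.95 in Kifc3 (0.0197). Of these 4, Zcchc18 did not pass with any donor left out, and the other 3 did not pass without donor 2 or without donor 3. Psmb10 (0.066) and Zcchc18 (0.082) also did not pass without the donor 2 array of T3+IFNγ at 8 h. In Kifc3 the mean was lower with IFNγ at 8 h (7.44 against 8.43) and nearly equal at 48 h (9.61 against 9.66). No cause was tested.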

How the results depend on the processing

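The size of the gene set followed its limits: limits of 1.5 gave 14 genes, limits met in every donor 34, and leaving out a donor 88 to 96. Requiring a change of at least 2-fold as well left 36 members falling from 24 to 96 h of T3+IFNγ, 18 falling and 1 rising from 24 to 48 h, 14 falling and 1 rising from 48 to 96 h, 10 rising and 7 falling from 8 to 48 h of T3, and 6 and 3 members lower with IFNγ at 8 and 48 h. Leaving out a donor gave 24 to 74 members falling from 24 to 96 h of T3+IFNγ, 35 to 77 rising from 8 to 24 h, 12 to 44 falling and 0 to 4 rising from 24 to 48 h, and 9 to 41 falling and 0 to 5 rising from 48 to 96 h. It gave 9 to 42 rising and 9 to 17 falling from 8 to 48 h of T3, 3 to 24 lower and 3 to 9 higher with IFNγ at 8 h, 1 to 20 lower and 6 to 21 higher at 48 h, 0 to 13 and 0 to 4 for the IFNγ difference between 8 and 48 h, and 23 to 39 for the peak carried over to T3+IFNγ. With the donor as a block, 13 members were higher in that last difference of differences, and without the donor 2 array of T3+IFNγ at 8 h, an alternative chosen after seeing the data, 3 were; the block moved no other count by more than 1.5 times, giving 67 members falling from 24 to 96 h. Without the donor 2 array of T3+IFNγ at 24 h, also chosen after seeing the data, no count moved by more than 1.5 times. Of 66 tested values of named members, 25 kept direction and side of the threshold in every setting; of their 581 values under single alternatives 501 did so, 71 no longer passed, 8 newly passed and 1 reversed: Gask1b, at 0.0032 and not past the threshold, was at -0.20 without donor 3 and 0.14 without donor 2. Each left-out donor leaves 2 arrays a group, and the cause of the unequal loss between donors was not tested. Probe sets near background compress differences, and 3 members had a T3 24 h mean under the median of all values.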
